A study of Mus musculus with 2 samples.

Results

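Shared promoters are stretches of DNA between a pair of genes that start close together and are read outwards, in opposite directions. They were found here as neighbouring, non-overlapping autosomal protein-coding genes whose facing ends lay at most 1000 bp apart, with the left gene on the minus strand and the right gene on the plus strand. Of 1918 facing pairs with such a gap, 532 were divergent in this sense, 431 were tandem, 406 were convergent and 549 had a gene whose strand was not given. The 532 divergent pairs hold 1064 genes, which is 6.47% of the 16457 autosomal protein-coding genes with a strand. The gap and the 500 bp on either side of it made up the region that was counted.

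A divergent promoter carries the start sites of a pair of messenger RNAs on opposite strands, and general transcription factors and RNA polymerase II assemble separately for each direction within the same open stretch. Such promoters are usually rich in CpG and poor in TATA boxes, and many serve genes that all cells use, such as those of DNA repair, mitochondria and RNA synthesis. In the mouse retina rods are the most numerous cells and pack their DNA densely, and the promoters of many photoreceptor genes are bound by the factor CRX.

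The assay was ATAC-seq: Tn5 transposase cuts open DNA and leaves sequencing adapters there, so that each read end marks an insertion. The samples were neural retinas of adult C57BL/6 littermates, with 1 Gabra3 knockout library and 1 wild-type library, each from 20000 nuclei. Gabra3 encodes a GABA-A receptor subunit, alpha 3, and the sources used here do not give the knockout allele, the sex of the animals or any pooling. With 1 library per genotype no test was possible between them, so every value describes these libraries, and the intervals given are exact 95% intervals (Clopper-Pearson) that cover counting error only.

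The knockout library held 7646373 insertions and the wild-type library 7635799 after poorly placed and repeated reads were left out. Gabra3 itself lies on chromosome X at 72432676 to 72656919 (GRCm38.p6), and its 224.2 kb held 121 insertions in the knockout and 126 in the wild type, or 0.540 per kb in the knockout and 0.562 in the wild type. Of 45 windows of 5 kb across it, 1 was empty in the knockout alone and 1 in the wild type alone, so these counts show no deleted stretch and do not check the genotype labels. At the end with more insertions, the rod markers held 9 to 202 insertions in the knockout and 19 to 209 in the wild type, Gnat1 with 136 in the knockout and 157 in the wild type among them. The markers of lens, microglia, blood vessels and pigment epithelium held 0 to 16 in the knockout and 1 to 20 in the wild type, and Cx3cr1 of microglia was at 0 in the knockout library. The cone markers were no higher than these, at 10 to 16 in the knockout and 5 to 19 in the wild type. Bipolar cell markers held 4 to 111 in the knockout and 5 to 97 in the wild type. Muller glia markers held 9 to 100 in the knockout and 10 to 111 in the wild type. In these bulk libraries, fewer cells of a type and less open DNA per cell cannot be told apart.

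The gaps of 8 pairs show what kinds of DNA lie between the facing genes, and they were taken from pairs that stand out in the results. They are written 5′ to 3′ on the plus strand, from RefSeq promoter sequence of GRCm38.p6, with matches to the motifs searched in capitals, and adjoining or overlapping matches run together. L3hypdh/Jkamp (chr12:72085434-72085547) and Zranb3/R3hdm1 (chr1:128103054-128103281) are among the 10 most accessible pairs. Their capitals mark 3 GC boxes (GGGCGG), the element that Sp1 binds, in L3hypdh/Jkamp and 3 CCAAT boxes, read as ATTGG on this strand, in Zranb3/R3hdm1. Hnrnpc/Rpgrip1 (chr14:52104040-52104240), next to a photoreceptor gene, has 3 CCAAT boxes and a TAATCC, the letters that the photoreceptor factor CRX binds. Abhd8/Mrpl34 (chr8:71464708-71464925) has 3 copies of TACANNTCC, the core of the element bound by ZNF143, the second of which runs into an ETS site (CCGGAAG). Mrps12/Sars2 (chr7:28741822-28741956), a textbook shared promoter, has 3 CCAAT boxes, and its last capitals are a GC box that overlaps an E2F site (TTCCCGCC on the other strand). H2ac8/H2bc8 (chr13:23571221-23571399) stands for the histone pairs, with 2 CCAAT boxes and a TATA box (TATAAA). Fam126b/Ndufb3 (chr1:58586334-58586396) and Chmp1a/Spata33 (chr8:123212789-123212836) are shown for their knockout to wild-type ratios. Fam126b/Ndufb3 had the lowest ratio and has 1 CCAAT box in capitals, and Chmp1a/Spata33 had the highest and has 3 GC boxes.
L3hypdh/Jkamp: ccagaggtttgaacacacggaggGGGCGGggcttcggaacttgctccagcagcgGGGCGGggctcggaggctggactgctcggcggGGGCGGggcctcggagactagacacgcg
Zranb3/R3hdm1: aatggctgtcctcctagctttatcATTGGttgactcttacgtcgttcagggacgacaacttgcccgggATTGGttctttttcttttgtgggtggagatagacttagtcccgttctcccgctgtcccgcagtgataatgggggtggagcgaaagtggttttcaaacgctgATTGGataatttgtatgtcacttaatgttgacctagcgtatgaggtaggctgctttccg
Hnrnpc/Rpgrip1: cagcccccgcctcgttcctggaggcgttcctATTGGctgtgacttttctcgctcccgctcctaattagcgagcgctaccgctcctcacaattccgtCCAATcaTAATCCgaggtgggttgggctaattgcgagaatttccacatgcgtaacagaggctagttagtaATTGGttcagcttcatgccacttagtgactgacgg
Abhd8/Mrpl34: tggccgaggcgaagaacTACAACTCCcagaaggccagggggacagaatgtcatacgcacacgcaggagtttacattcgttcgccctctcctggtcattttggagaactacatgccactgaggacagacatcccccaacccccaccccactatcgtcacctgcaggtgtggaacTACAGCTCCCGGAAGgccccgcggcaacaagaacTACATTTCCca
Mrps12/Sars2: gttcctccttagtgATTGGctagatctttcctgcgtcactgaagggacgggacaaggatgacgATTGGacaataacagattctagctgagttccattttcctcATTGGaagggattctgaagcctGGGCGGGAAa
H2ac8/H2bc8: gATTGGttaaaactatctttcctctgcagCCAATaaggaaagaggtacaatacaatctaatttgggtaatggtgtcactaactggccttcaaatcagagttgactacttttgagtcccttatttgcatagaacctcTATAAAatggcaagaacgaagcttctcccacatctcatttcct
Fam126b/Ndufb3: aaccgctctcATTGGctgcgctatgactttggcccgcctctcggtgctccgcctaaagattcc
Chmp1a/Spata33: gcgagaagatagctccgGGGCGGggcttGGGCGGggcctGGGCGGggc

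Shared promoters were among the most accessible gene starts of both libraries. The median shared promoter held 112.5 insertions in the knockout and 115 in the wild type, or 98.8 insertions per kb in the knockout and 100.8 in the wild type. The starts of the 3207 isolated genes, which have no other gene within 10 kb of either end, had a median of 3 insertions per kb in the knockout and 3 in the wild type. The medians of shared promoters were thus 32.9-fold higher than those of isolated starts in the knockout and 33.6-fold higher in the wild type. That fold is coarse because the lower median is a count of 3, and it was 24.7-fold in the knockout and 25.2-fold in the wild type when isolation was set at 5 kb or at 20 kb. The middle 50% of shared promoters lay between 62.8 and 136 insertions per kb in the knockout and between 65.2 and 143 in the wild type, and those of isolated starts between 1 and 23 in the knockout and between 1 and 25 in the wild type. The upper quartile of isolated starts was thus below the lower quartile of shared promoters in both libraries.

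**Figure D1:**
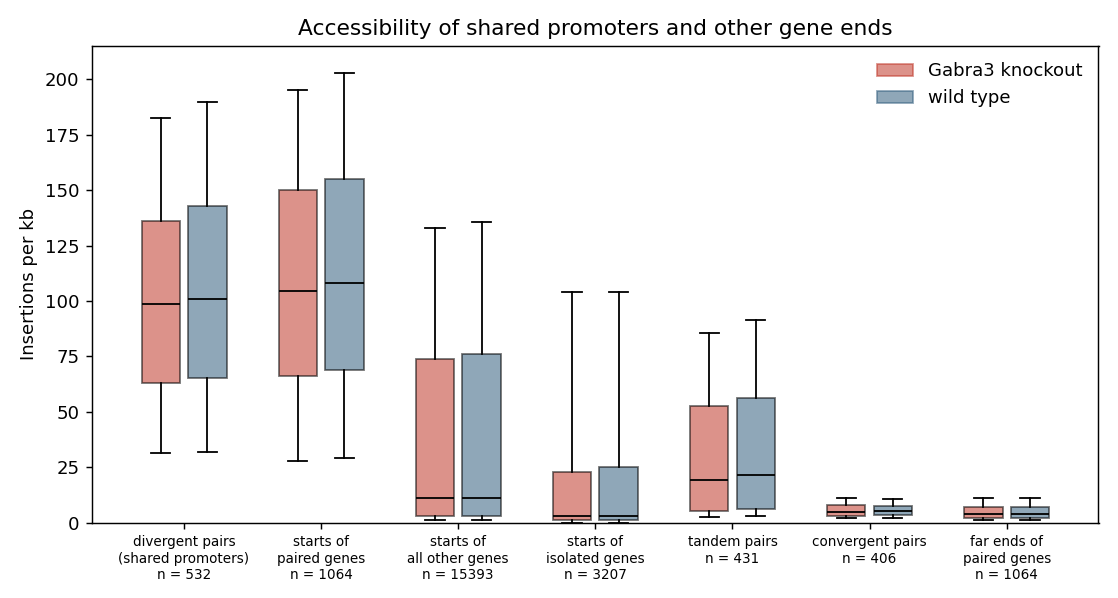
Insertions per kb (vertical axis) at shared promoters and at other kinds of gene end (horizontal axis, with the number of regions), red boxes for the Gabra3 knockout library and blue boxes for the wild-type library. Boxes span the quartiles with a line at the median, and whiskers run from the 10th to the 90th percentile; the divergent pairs (medians 98.8 in the knockout and 100.8 in the wild type) stand above tandem pairs, convergent pairs and far ends in both libraries.

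The orientation of the genes went with the level. Tandem pairs, in which the gap holds the start of 1 gene and the end of the other, had a median of 19.1 insertions per kb in the knockout and 21.7 in the wild type. Convergent pairs, in which a pair of gene ends faces, had 5.03 per kb in the knockout and 5.08 in the wild type. The far ends of the same 1064 paired genes held a median of 4 insertions in 1000 bp in each library, against 104.5 in the knockout and 108 in the wild type at their starts. The starts of all 15393 other genes with a strand held 11 in each library.

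An open region is a stretch where windows of 200 bp held more insertions than the genome and the surrounding 10000 bp would give. Such a region, called on both libraries together, overlapped all but 31 of the 532 shared promoters (94.2%, 91.8 to 96.0%), against 1051 of 3207 isolated starts (32.8%, 31.1 to 34.4%), 59.4% of tandem pairs and 4.93% of convergent pairs. Called at equal depth in each library by itself, 495 shared promoters (93.0%) were open in the knockout and 498 (93.6%) in the wild type. Of these, 494 were open in both, 1 in the knockout alone and 4 in the wild type alone. The same calling over all autosomes gave 23235 open regions in the knockout and 25956 in the wild type. The 5 pairs called in 1 library alone were weak, with 5 to 50 insertions in the knockout and 11 to 36 in the wild type.

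Shared promoters were also higher when only open starts were compared. Among open regions alone, shared promoters had a median of 103 insertions per kb in the knockout and 105 in the wild type. Open isolated starts had 63 in the knockout and 66 in the wild type, so shared promoters were 1.63-fold higher in the knockout and 1.59-fold in the wild type. Against the open starts of all other genes the fold was 1.35 in the knockout and 1.34 in the wild type. A pair region holds the starts of both genes, while the other windows are set at a single start, so these folds are not per start. The same limit applies to the folds over all isolated starts given above. The open region was also wider at shared promoters, with a median of 850 bp against 750 bp at isolated starts.

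Insertions at a shared promoter centred on the gap. Over the 527 pairs with a gap of at least 1 bp, the gap made up 14.8% of the length of the regions and held 26.7% of their insertions in the knockout library (26.3 to 27.0%) and 27.2% in the wild-type library (26.8 to 27.5%). Per kb, this was 184 insertions in the gaps and 87.3 in the flanks in the knockout, and 193 in the gaps and 89.4 in the flanks in the wild type. Gap lengths ran from 0 to 999 bp with a median of 99.5 bp, and 268 pairs (50.4%) faced each other across 100 bp or less. In 70.1% of pairs both gene ends lay within 100 bp of an annotated start.

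The spread of the insertions differed with the length of the gap. Pairs with gaps of up to 100 bp had a single peak that stayed above 50% of its highest value over 260 bp in each library. That width was 320 bp in each library for gaps over 100 and up to 200 bp, and for gaps over 200 and up to 500 bp it was 460 bp in the knockout and 480 bp in the wild type. In gaps over 200 and up to 500 bp the middle dipped slightly. The 20 bp just left of it held 171 insertions per kb in the knockout and 186 in the wild type. The highest values of that class were 226 in the knockout and 227 in the wild type. The 41 pairs with gaps over 500 bp had a separate peak on each side. The central 200 bp of those long gaps held 65.2 insertions per kb in the knockout and 69.6 in the wild type, below their highest values of 122 in the knockout, at 330 bp towards the minus-strand gene, and 133 in the wild type, at 370 bp towards the plus-strand gene.

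**Figure D2:**
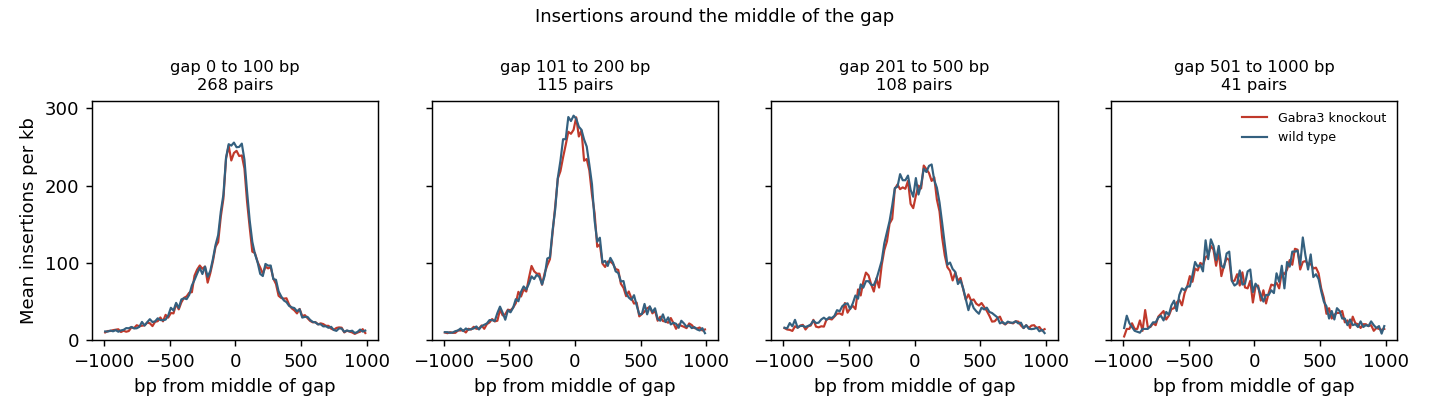
Mean insertions per kb in bins of 20 bp (vertical axis) by distance in bp from the middle of the gap (horizontal axis, the minus-strand gene to the left), 1 panel for each class of gap length, red for the Gabra3 knockout and blue for the wild type. The single central peak of gaps up to 200 bp is broader for gaps up to 500 bp, with a shallow dip near the middle. It is split above 500 bp, alike in both libraries.

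Regions with the longest gaps had fewer insertions per kb, but about as many per region as those with the shortest. The median count per region was 104 in the knockout and 106 in the wild type for gaps over 500 bp. For gaps up to 100 bp it was 102.5 in the knockout and 107 in the wild type. The median level was 96.6 insertions per kb in the knockout and 102 in the wild type for gaps up to 100 bp, and 121 in the knockout and 122 in the wild type over 100 and up to 200 bp. It was 91.6 in the knockout and 97.6 in the wild type over 200 and up to 500 bp, and 55.9 in the knockout and 56.6 in the wild type over 500 bp. The share of pairs with an open region was 97.0%, 92.2%, 93.5% and 82.9% in the 4 classes, from short to long. Of the 34 open pairs with the longest gaps, 8 (23.5%) held 2 separate open regions, against 0 of the 260 open pairs with the shortest. Txndc9/Eif5b, with a gap of 715 bp next to the translation initiation factor gene Eif5b, was the most accessible pair with 2 open regions, at 288 insertions in the knockout and 291 in the wild type, and was named after its values were seen.

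Seen from each gene, the paired starts differed from isolated starts mainly upstream, where the partner lies. Among open starts, the 100 bp before the start held 244 insertions per kb in the knockout and 256 in the wild type at paired genes, against 151 in the knockout and 156 in the wild type at isolated genes. In the third 100 bp upstream of the start, paired genes had 126 in the knockout and 128 in the wild type, and isolated genes 56.0 in the knockout and 58.0 in the wild type. Inside the gene the order turned: at 400 to 499 bp downstream, paired genes had 36.3 in the knockout and 37.3 in the wild type, and isolated genes had 51.1 in the knockout and 50.3 in the wild type.

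**Figure D3:**
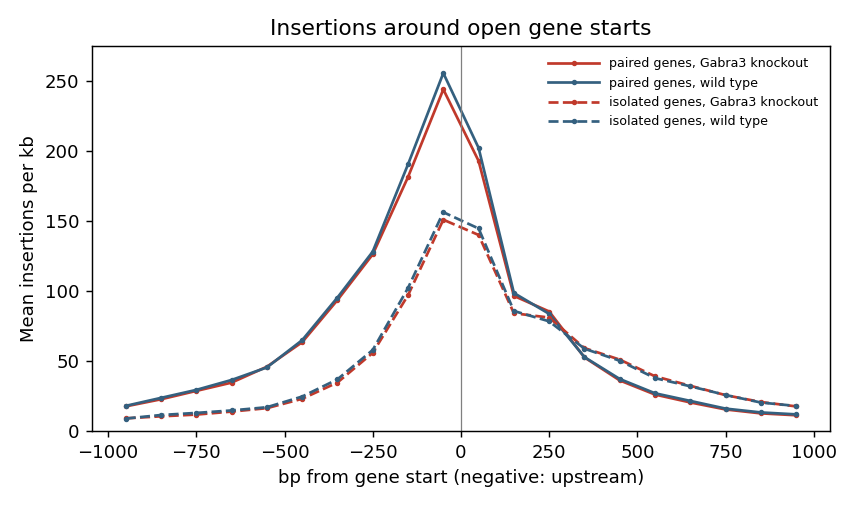
Mean insertions per kb in bins of 100 bp (vertical axis) by distance in bp from the gene start (horizontal axis, negative upstream), solid lines for the open starts of paired genes and dashed lines for open isolated starts, red for the Gabra3 knockout and blue for the wild type. Paired starts are higher upstream and in the first 100 bp of the gene (193 in the knockout and 202 in the wild type, against 140 in the knockout and 145 in the wild type at isolated starts), and lower from 300 bp downstream on.

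For 457 pairs at least 100 insertions were summed over the libraries, which was enough to place the highest point of each promoter after smoothing over 151 bp. It lay in the gap in 239 pairs (52.3%), inside the minus-strand gene in 120 and inside the plus-strand gene in 98, and in 89.7% it was in the gap or within 100 bp of it. The position differed by a median of 18 bp between the knockout and the wild-type library, and by at most 100 bp in 407 pairs (89.1%).

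Many shared promoters were lopsided. The flank in 1 gene held at least 2-fold more insertions than the flank in the other in 168 pairs of the knockout library (36.8%) and in 150 of the wild-type library (32.8%). Of these, 120 pairs were lopsided in both libraries, which is 71.4% of those in the knockout and 80.0% of those in the wild type, and in all 120 the larger flank was the same. The larger flank belonged to the plus-strand gene in 57 and to the minus-strand gene in 63. The 2 pairs with a photoreceptor gene and at least 100 insertions were among these, but other pairs, such as Miip/Fv1, were more lopsided. At Hnrnpc/Rpgrip1 the flank in Rpgrip1, whose protein holds the RPGR complex at the photoreceptor cilium, had 112 insertions in the knockout and 124 in the wild type, while the flank in Hnrnpc, an RNA-binding protein gene, had 27 in the knockout and 30 in the wild type. At Rom1/Eml3 the flank in Rom1, a membrane protein of rod discs, had 105 in the knockout and 120 in the wild type, while the flank in Eml3 had 41 in the knockout and 42 in the wild type. Miip/Fv1 was lopsided in both libraries, with 76 insertions in the Miip flank in the knockout and 72 in the wild type, and 4 in the Fv1 flank in the knockout and 3 in the wild type. These 3 pairs were named for lopsidedness after their values were seen.

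By insertions per kb summed over both libraries, the most accessible shared promoter was Dcaf6/Mpc2 on chromosome 1, between the gene of a ubiquitin ligase receptor and that of a subunit of the mitochondrial pyruvate carrier. Its region (chr1:165460407-165461759) held 435 insertions in the knockout and 457 in the wild type. Tpmt/Kdm1b, next to the histone demethylase gene Kdm1b, held 339 in each library across a gap of 34 bp, and per kb it was the higher of these 2 in the knockout, at 328 against 322. Both were thus near equal between the libraries, and the log2 ratio of knockout to wild type after scaling was -0.01 for Dcaf6/Mpc2 and 0.06 for Tpmt/Kdm1b.

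The other pairs among the 10 with most insertions per kb serve varied genes. L3hypdh/Jkamp, with the 3 GC boxes shown above, held 324 in the knockout and 362 in the wild type. Nfya/Oard1, which shares the promoter of the gene for the CCAAT-binding subunit NF-YA, held 347 in the knockout and 350 in the wild type. Zranb3/R3hdm1, between the gene of a replication fork helicase and R3hdm1, held 313 in the knockout and 320 in the wild type. The remaining 5 were BC005624/Usp20, Tmem129/Tacc3, Cryzl1/Itsn1, Mms19/Ubtd1 and Ggps1/Arid4b, with 237 to 382 insertions in the knockout and 261 to 390 in the wild type. Mms19/Ubtd1 was the 1 member of the 10 with a gap over 500 bp. The interval of the ratio included 0 in all 10.

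Of a list of 20 textbook head-to-head pairs, 3 were members and 2 more (Prkdc/Mcm4 and Wrn/Purg) faced each other with a strand not given. Atm/Npat, between the DNA damage kinase gene Atm and the histone gene activator Npat, held 171 insertions in the knockout and 198 in the wild type, with a log2 ratio of -0.15 (-0.46 to 0.15). Mrps12/Sars2, a mitochondrial ribosomal protein gene and the gene of mitochondrial seryl-tRNA synthetase, held 181 in the knockout and 172 in the wild type. Psmb9/Tap1, genes of the immunoproteasome and of the peptide transporter for antigen display, held 19 in the knockout and 24 in the wild type and ranked 493 of 532 by level. The 2 housekeeping pairs were thus well above the median shared promoter in both libraries, and the immune pair was far below it.

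The knockout and the wild-type library differed little at shared promoters. Pearson's r of log2 insertions across the 532 pairs was 0.985, a description over regions of the same pair of libraries that share their depth. Of the 457 pairs with at least 100 insertions, 0 differed by 2-fold in either direction, and the same held for 0% of the 7363 gene ends counted the same way over all genes. At 1.5-fold, 1 pair was higher in the knockout, or 0.219%, beside 0.53% of all genes, and 2 were lower, or 0.438%, beside 0.217% of all genes. The interval of the ratio left out 0 in 11 pairs (2.41%), beside 2.81% of all genes, which is no more than among other gene ends.

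The median log2 ratio over those pairs was 0.01, with an SD of 0.17 across pairs, and the middle 50% lay between -0.08 and 0.11. All genes had a median of 0.02 and an SD of 0.19. Summed over the 532 pairs, the knockout library held 63411 insertions and the wild-type library 65335, which gave 0.02 after scaling to insertions in open regions (0.00 to 0.03). Scaling to all autosomal insertions moves every ratio by -0.06, and the sum to -0.05, so its sign rests on the scaling. For 454 pairs (99.3%) the interval lay within 2-fold either way and for 338 (74.0%) within 1.5-fold.

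**Figure D4:**
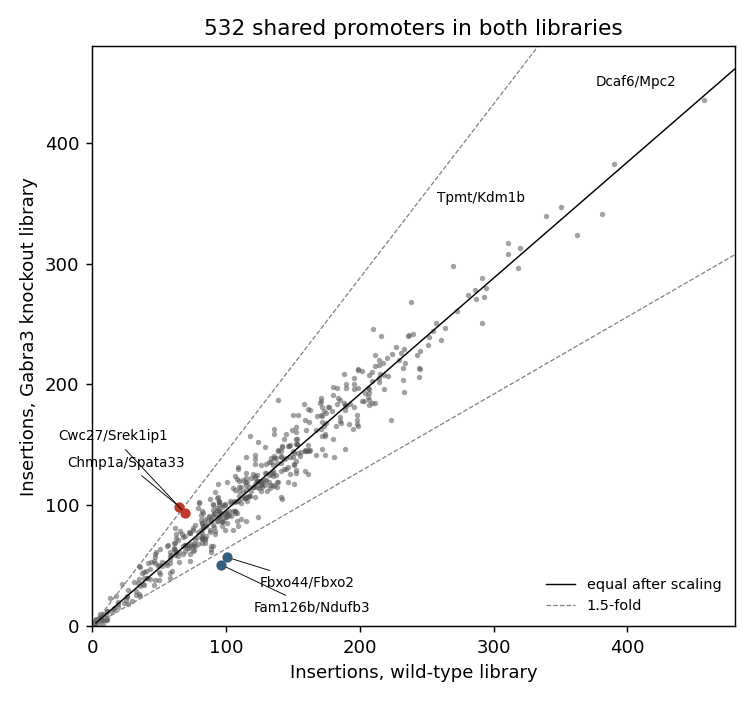
Insertions in the Gabra3 knockout library (vertical axis) against the wild-type library (horizontal axis), 1 point for each of 532 shared promoters. The solid line is equality after scaling and the dashed lines are 1.5-fold; Chmp1a/Spata33 (99 in the knockout and 65 in the wild type) and Cwc27/Srek1ip1 (94 in the knockout and 69 in the wild type) are the highest ratios, Fam126b/Ndufb3 (51 in the knockout and 96 in the wild type) and Fbxo44/Fbxo2 (log2 ratio -0.76) the lowest.

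The pairs at the edges of that spread were mostly of middling or low level. Fam126b/Ndufb3, next to the gene of a complex I subunit, held 51 insertions in the knockout and 96 in the wild type, a log2 ratio of -0.85 (-1.37 to -0.35). Fbxo44/Fbxo2, a pair of F-box genes of ubiquitin ligases, held 56.2 insertions per kb in the knockout and 99.6 in the wild type, or -0.76 (-1.26 to -0.28). These 2 pairs are the lowest of 457 and were picked for that, their intervals reach below a 1.5-fold difference, and without replicates the spread between animals is unknown. The SD of 0.17 over all 457 pairs was no larger than the 0.19 that counting error alone gives at these counts. Sirt3/Psmd13 held 61 in the knockout and 89 in the wild type, a log2 ratio of -0.48 (-0.98 to 0.0003). Sdhaf2/Cpsf7 held 64 in the knockout and 89 in the wild type, or -0.41 (-0.90 to 0.06). Fig4/Ak9 held 90 in the knockout and 124 in the wild type, or -0.40. The intervals of Sirt3/Psmd13 and Sdhaf2/Cpsf7 included 0, and that of Fig4/Ak9 ended just below 0.

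At the other edge, Chmp1a/Spata33, next to the gene of an ESCRT-III subunit, held 99 insertions in the knockout and 65 in the wild type, or 0.66 (0.20 to 1.14). It was the 1 pair more than 1.5-fold higher in the knockout. Cwc27/Srek1ip1, a pair of genes of RNA splicing, held 94 in the knockout and 69 in the wild type, or 0.50 (0.04 to 0.97). Psma7/Ss18l1, next to a proteasome subunit gene, held 187 in the knockout and 139 in the wild type, or 0.49 (0.16 to 0.81). Exosc8/Alg5 and Vps53/Tlcd3a followed at 0.47 and 0.44, and the interval of Vps53/Tlcd3a included 0.

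Several groups of housekeeping genes were often arranged in such pairs, set against the 6.47% of all genes. Of 90 genes of the respiratory chain and ATP synthase, 26 (28.9%, 19.8 to 39.4%) shared a promoter with another gene, and all 26 pairs were open, beside 94.2% of all shared promoters. Shares of 24 to 25% were found for the mitochondrial ribosome (17 of 69, 24.6%), RNA polymerase and general transcription factors (21 of 87, 24.1%), DNA replication and repair (23 of 92, 25%) and aminoacyl-tRNA synthetases (6 of 25, 24.0%). The proteasome (7 of 42, 16.7%), splicing (8 of 51, 15.7%) and the cilium (11 of 71, 15.5%) lay between, as did the cytosolic ribosome (9 of 66, 13.6%, 6.43 to 24.3%). Of 938 olfactory receptor genes 2 were paired (0.213%, 0.0258 to 0.768%). For the cytosolic ribosome, for zinc finger Zfp genes (15 of 325, 4.62%, 2.61 to 7.5%) and for GABA-A and glycine receptors (0 of 14, up to 23.2%) the interval included the share of all genes.

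The mitochondrial pairs were close to the typical shared promoter. The 26 respiratory chain pairs had a median of 96.3 insertions per kb in the knockout and 89.1 in the wild type, and summed to a log2 ratio of 0.05 (-0.03 to 0.13). Mrpl47/Ndufb5, which joins a mitochondrial ribosomal protein gene and a complex I gene, held 200 insertions in the knockout and 196 in the wild type. Tepsin/Ndufaf8 held 189 in the knockout and 171 in the wild type. Among the 16 mitochondrial ribosome pairs, Abhd8/Mrpl34, with the TACANNTCC copies shown above, held 207 in the knockout and 221 in the wild type. Mrps18b/Ppp1r10, named after its values were seen, held 171 in the knockout and 223 in the wild type. Its log2 ratio was -0.32 (-0.62 to -0.03), and it is among the 2.41% of pairs whose interval left out 0, beside 2.81% of all genes.

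Among the other machineries the share of open pairs was near the 94.2% of all shared promoters. All 21 pairs of RNA polymerase and general transcription were open, led by Polr3g/Mblac2 with 185 insertions in the knockout and 209 in the wild type and Gtf3c1/D430042O09Rik with 181 in the knockout and 176 in the wild type. All 23 pairs of DNA replication and repair were open, led by Xrcc3/Zfyve21, next to a recombination gene, with 242 in the knockout and 240 in the wild type, and Fkbp3/Fancm with 197 in the knockout and 199 in the wild type. Of the 9 cytosolic ribosome pairs 8 were open, with Rpl36al/Mgat2 at 127 in the knockout and 130 in the wild type. Among the 6 tRNA synthetase pairs, Lyrm4/Fars2 held 197 in the knockout and 206 in the wild type. Pcgf2/Psmb3 of the proteasome list held 178 in the knockout and 173 in the wild type across the longest gap of all, 999 bp, and Srsf7/Gemin6 of the splicing list 169 in the knockout and 162 in the wild type. For the proteasome, splicing and cytosolic ribosome lists the interval of the summed ratio included 0.

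Histone genes were often paired, and these pairs had low counts. Of 73 histone genes 19 (26.0%) were in pairs, and in 9 of the 10 pairs an H2A gene faced an H2B gene. The median was 40.6 insertions per kb in the knockout and 48.9 in the wild type, below the lower quartile of all shared promoters in each. Among these pairs, 2 (H2bc23/H2ac23 and H2ac24/H4bc24) enter that median at 0 and had reads almost only of low mapping quality. H2ac15/H2bc15 held 73 in the knockout and 82 in the wild type, and H2ac8/H2bc8 held 74 in the knockout and 78 in the wild type. The 5 histone pairs with at least 100 insertions had log2 ratios of -0.16 to -0.02, each with an interval that included 0, where 217 of all 457 pairs were below 0. The summed log2 ratio of -0.13 (-0.32 to 0.06) had an interval that included 0.

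Pairs with genes of the cilium, on which photoreceptor outer segments are built, ranged widely in level. Their median was 115 insertions per kb in the knockout and 120 in the wild type, beside 98.8 and 100.8 over all shared promoters. By level they ranked from 16 (Rpgrip1l/Fto) to 432 (Cep44/Fbxo8) of 532. Rpgrip1l/Fto held 233 insertions in the knockout and 251 in the wild type. Tmtc3/Cep290, which holds the gene of a ciliary transition zone protein, held 226 in the knockout and 231 in the wild type. The latter pair was named after its values were seen. Hnrnpc/Rpgrip1 held 214 in the knockout and 244 in the wild type, or -0.13 (-0.40 to 0.14). All 11 pairs of the list were open, and their sum gave 0.02 (-0.08 to 0.11). Of 35 genes of phototransduction and photoreceptors 3 were in pairs. Rom1/Eml3 held 213 in the knockout and 245 in the wild type, or -0.14 (-0.41 to 0.13), and Tfpi2/Gngt1 held 2 in the knockout and 1 in the wild type. Rlbp1, which encodes the retinoid-binding protein of Muller glia, shares its facing end with Fanci, and that pair held 29 in the knockout and 33 in the wild type.

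The 31 shared promoters without an open region held a median of 6 insertions in each library. In 3 of them nearly all reads had low mapping quality, as reads from sequence with near-identical copies do. Gm2436/Srp54b had 0 insertions in each library at the mapping quality used, which allows up to 3, and 173 in the knockout and 177 in the wild type with reads of any mapping quality. The histone pair H2bc23/H2ac23 had 0 in each library, and 86 in the knockout and 120 in the wild type at any mapping quality. H2ac24/H4bc24 had 0 in each library, and 91 in the knockout and 97 in the wild type at any mapping quality. These 3 regions are therefore uncertain and not shown to be closed. Mup15/Mup-ps12, of the urinary protein cluster, also had 0 in each library and held 3 in the knockout and 2 in the wild type at any mapping quality, and Mup19/Mup-ps16 had 1 in each.

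The other closed pairs held varied genes, and those given here were named after their values were seen. Nphs1/Kirrel2 of the kidney filter held 8 in the knockout and 6 in the wild type. Duox2/Duoxa2 of the thyroid held 7 in the knockout and 5 in the wild type. Rec114/Hcn4 held 25 in the knockout and 18 in the wild type, and Wdr83/Wdr83os 24 in the knockout and 26 in the wild type. Stat5b/Stat5a held 6 in the knockout and 7 in the wild type. An annotated start of Stat5b 8423 bp away had 27 in the knockout and 20 in the wild type. These examples do not describe the closed pairs as a set. In 3 closed pairs a gene had an open start elsewhere. The rod transducin gene Gngt1 had an annotated start 4926 bp away with 39 insertions in the knockout and 67 in the wild type. Rps2 had an annotated start 1942 bp away with 120 in each library, and Rab3il1, which faces the pigment epithelium gene Best1, had an annotated start 16525 bp away with 62 in the knockout and 61 in the wild type. For these 3 genes the open start was thus not the facing end, and the pairs count as shared promoters by annotation alone.

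Promoter windows from 250 bp before to 50 bp after the annotated start, from RefSeq (GRCm38.p6), were matched for all 1064 paired genes. Shared promoters were not richer in GC than other open promoters: the median GC share was 61.7% at paired genes, against 63.0% at open isolated starts and 62.0% at the open starts of all other genes. They were richer in CpG, with a median ratio of observed to expected CpG of 0.844, against 0.769 at open isolated starts and 0.790 at other open starts. That ratio was at least 0.6 in 85.9% of paired genes, against 74.6% of open isolated starts.

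Some short motifs were more frequent at paired genes. Both strands were searched, and the windows of the pair overlap where the gap is short, so the genes are not independent and counting intervals would be too narrow. Where the gap is short, a window also takes in the start of the partner gene. How much this adds to the shares at paired genes was not tested. The ETS site CCGGAAG was in 27.5% of windows of paired genes, against 18.8% of other open starts, 11.7% of open isolated starts and 12.3% of all genes. The YY1 site AAGATGGC was in 8.74%, against 4.31% of other open starts and 3.21% of all genes. The CCAAT box, searched as CCAAT, was in 44.9%, against 39.5% of other open starts and 39.1% of all genes. The ZNF143 core TACANNTCC, added after the printed gaps were seen, was in 8.83%, against 6.87% of other open starts and 5.30% of all genes.

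For other motifs the shares at paired genes and at other open starts lay closer. The NRF1 site GCATGCGC was in 6.39%, against 6.11% of other open starts and 3.66% of all genes. The GC box GGGCGG was in 66.3% of windows of paired genes, against 68.3% of other open starts and 47.3% of all genes. The TATA box TATAAA was in 6.11% of paired genes, against 6.37% of other open starts and 13.5% of all genes. The CRX letters TAATCC were in 5.08% of paired genes, against 5.56% of other open starts and 6.51% of all genes. The CRE TGACGTCA was in 3.76% of paired genes and 3.70% of other open starts, and the E2F site TTCCCGCC was in 4.51% of paired genes and 4.48% of other open starts.

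**Figure D5:**
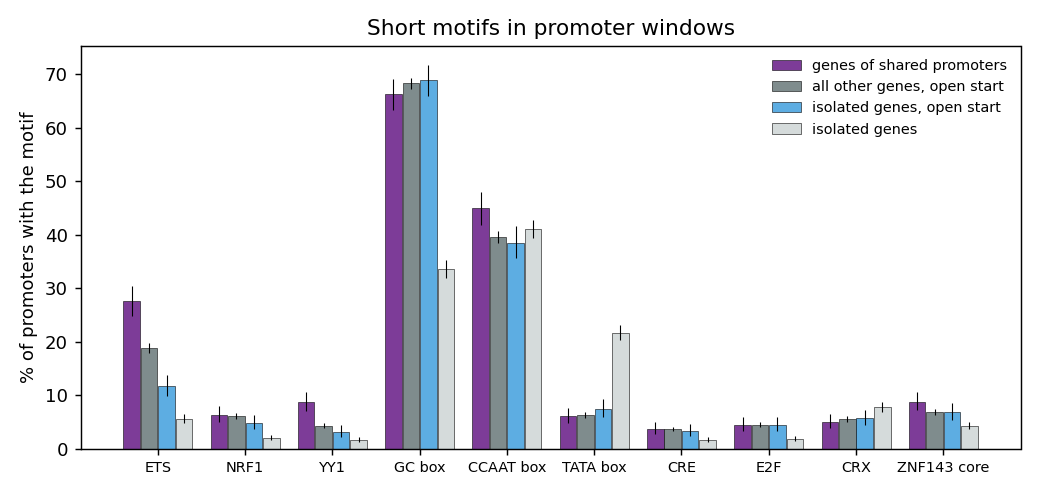
Share of promoter windows that hold each motif, in % (vertical axis), for the genes of shared promoters, open starts of all other genes, open isolated starts and all isolated starts (left to right in each group). Bars start at 0 with exact 95% intervals that treat windows as independent; the ETS bar (27.5%) and the YY1 bar (8.74%) of paired genes stand above the other 3 sets, and the GC box bars of the 3 left sets lie between 66.3% and 68.9%.

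The motifs went with different levels among the shared promoters themselves. The 49 pairs with a TATA box had a median of 62.8 insertions per kb in the knockout and 67.4 in the wild type, and the 483 without had 102 in the knockout and 105 in the wild type. The 415 pairs with a GC box had 107 in each library, and the 117 without had 72.5 in the knockout and 77.1 in the wild type. The 60 pairs with TACANNTCC had 122 in the knockout and 126 in the wild type, against 94.7 in the knockout and 98.2 in the wild type for those without. That motif was added after the printed gaps were seen, and some of those gaps were picked for high counts. Its contrasts in level and among the pairs without an open region are thus not independent of that choice. For the ETS site the medians lay closer, at 103 in the knockout and 106 in the wild type with it, and 95.2 in the knockout and 99.4 in the wild type without it. Of the 31 pairs without an open region, 9 had a TATA box, which 9.21% of all pairs had, and 3 had an ETS site, which 35.2% of all pairs had. The CCAAT box was at 23 of the 31 and at 54.7% of all pairs, and the GC box at 18 of the 31 and at 78.0% of all pairs. YY1, CRE, E2F and ZNF143 letters were at 0 of the 31, and at 12.2% (YY1), 4.51% (CRE), 6.20% (E2F) and 11.3% (ZNF143) of all pairs.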

How the data were processed

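ATAC-seq reads were taken as deposited, 1 aligned read per line. The submitters' processing notes list Trimmomatic 0.33, BWA (no version), bedtools 2.23.0 and GRCm38; the sources used here do not give what each tool did. The deposited score column is the mapping quality, as the authors left it, and the deposited coordinates gave a read length of 75 bp throughout. The knockout file held 9038110 reads and the wild-type file 9170838, and 93.4% of knockout and 93.6% of wild-type reads had mapping quality of at least 10. Their 5′ ends were moved by 4 bp (plus strand) and -5 bp (minus strand) and counted once per position and strand, which removed 9.41% of knockout and 11.04% of wild-type reads. Open regions are windows of 200 bp, taken every 50 bp, whose Poisson p was under 1e-05, joined where within 150 bp of each other (35975 on autosomes, 17.6 Mb, with 18.8% of autosomal knockout and 19.6% of autosomal wild-type insertions). Log2 ratios (knockout over wild type, pseudocount 0.5) were scaled to the autosomal insertions of those regions.

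Gene positions came from a RefSeq table of GRCm38.p6, and strands from its promoter table, which gives them for 16457 of 20665 autosomal protein-coding genes. Pairs were named as the 10 with most insertions per kb, the 5 highest and 5 lowest ratios with at least 100 insertions, textbook pairs, the leading pairs of each list and the 5 with fewest insertions. All others were named after their values were seen. The members and lists were chosen with earlier results of these data known. Counting, pairing and region calling were tested on simulated data. Python 3.11.15, numpy 2.4.6, scipy 1.17.1 and pandas 2.3.3 were used. Alternatives changed mapping quality, repeats, the move to the insertion site, scaling, minimum count, flank, gap, isolation, window and calling threshold.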

Additional observations from a re-analysis of the deposited data

How the results depend on the processing

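Of 66 alternative values computed, 36 were the same as the reported one by the rule for their kind. Log2 ratios had to lie in the counting interval of the summed ratio, and shares in their own counting interval. Counts of pairs past a fold had to be equal or within 1.5-fold of the reported count. Medians and folds over isolated starts had to be equal to 3 digits. Depth (a median of 112.5 insertions per pair in the knockout and 115 in the wild type) limits single ratios: the interval stayed within 1.5-fold either way in 338 of 457 pairs. At mapping quality 30 the median per pair was 108 in the knockout and 110 in the wild type, and the fold over isolated starts 31.3 in the knockout and 32.5 in the wild type. With all repeats kept the median was 146.5 in the knockout and 153.5 in the wild type, the fold 42.6 in the knockout and 45.9 in the wild type, and the share in the gap 30.1% in the knockout and 31.0% in the wild type. Without the move to the insertion site the wild-type median was 114. The fold over isolated starts was 35.3 in the knockout and 36.6 in the wild type with a flank of 250 bp, and 33.6 in the knockout and 35.0 in the wild type with gaps up to 300 bp. It was 24.7 in the knockout and 25.2 in the wild type with isolation at 5 kb and at 20 kb, where the isolated median is 4 insertions instead of 3, and 35.3 in the knockout and 36.3 in the wild type for 1000 bp at the middle of the gap. Among the 373 pairs with both starts within 100 bp of the gene ends, an alternative chosen after seeing the data, the median was 107 in the knockout and 110 in the wild type, and the fold 31.6 in the knockout and 32.6 in the wild type. Scaled to all autosomal insertions, the median log2 ratio was -0.050 and the summed one -0.046. With at least 50 insertions, 2 pairs were 1.5-fold higher in the knockout, and with at least 200 insertions 0 were higher and 0 lower, since the 3 pairs past 1.5-fold held fewer than 200. The open share was 93.4% at p under 1e-07, 93.6% with 200 bp of overlap, 96.0% among those 373 pairs and 94.7% without the 3 pairs of near-identical copies, also chosen after seeing the data. The causes of the other moves were not tested. No paired analysis was possible because each genotype had 1 library.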

Other observations

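The 549 facing pairs with a strand not given, which include all those on chromosome 18, could not be sorted into divergent, tandem and convergent pairs. Their median was 10.0 insertions per kb in the knockout and 9.96 in the wild type, 46.1% overlapped an open region, and their upper quartile was 65.9 in the knockout and 66.2 in the wild type. The summed log2 ratio of these pairs was 0.01 (-0.02 to 0.03). Tandem pairs that were open had a median of 46.3 insertions per kb in the knockout and 48.9 in the wild type, and their open regions had a median width of 700 bp.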
